A study of Homo sapiens with 9 samples.

Results

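LCP2, KCNMB1 and KCNIP1 lie side by side on the long arm of chromosome 5 and are the 3 genes described here, out of 884 protein-coding genes annotated on chromosome 5. They are described through 11 bins of 40 kb, chr5:169640001-170080000 in hg19, called the core here, within a window of 65 bins, chr5:168600001-171200000. Chromosome 5 has 4388 bins with contacts in every library. The core is a stretch that the study listed as a topologically associating domain (TAD), chosen by its changed contacts between cells in RAS-induced senescence (RIS) and growing cells, since the study ranked it among the most altered domains of these same libraries. Its ends were not borders in most libraries by the insulation score computed here. Every difference between RIS and growing cells given here is therefore a description, the counts of pairs called in genome-wide fits included, and none of them supports the choice of the domain.

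Contacts inside the core were 1.34-fold higher in RIS than in growing fibroblasts. Between LCP2 and the 3′ end of KCNIP1, beyond the core, they were 1.81-fold higher. The core also contacted the neighbouring DOCK2 segment more, and the SLIT3 segment and the segment that starts at NPM1 less. Its compartment score moved from below 0 in all 3 growing libraries to above 0 in both RIS libraries.

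Hi-C joins DNA ends that lie close together in the nucleus and counts the joined pairs. It was analysed in IMR90 human diploid fibroblasts, a lung fibroblast line, all of which carried an oestrogen receptor-HRAS fusion with the G12V change (ER:HRAS G12V). Growing cells (n = 3 libraries) received no 4-hydroxytamoxifen (4OHT), whereas RIS cells (n = 2) received 100 nM 4OHT for 6 days, which switches the oncogene on. Growing replicate 3 carried an additional MSCV vector. Contacts recovered from the deposited matrices, each pair counted once, numbered 154318992, 175410468 and 180775315 in growing cells against 109967509 and 150689993 in RIS, so RIS replicate 1 was the shallowest. Growing replicate 3 and RIS replicate 2 had many duplicate reads according to the alignment summary of the study, the other 3 libraries few, and the share of dangling ends was higher in both RIS libraries than in all growing ones. The part of the dangling ends in the values below was not tested. Transcripts were not measured in these libraries, so whether any of the genes is active in the cells is not known from them.

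LCP2 encodes SLP-76, an adaptor that links antigen receptors of T cells and other blood cells to their downstream enzymes. KCNIP1 encodes a calcium-binding protein that sits on Kv4 potassium channels and adjusts their gating, mainly in neurons, and KCNMB1 encodes an accessory subunit of the large-conductance calcium-activated potassium channel of smooth muscle. A TAD is a stretch of chromatin whose parts meet each other more often than they meet the flanking DNA, commonly delimited by CTCF and cohesin. Chromatin of like activity also meets over long distances, which divides the genome into an A compartment, rich in genes and open, and a B compartment, poor in genes and closed. RIS is a lasting arrest of the cell cycle after oncogene activation that comes with reorganised chromatin and a secretory phenotype.

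LCP2 occupies chr5:169673237-169724819 on the minus strand and touches 3 bins of the core. KCNIP1 runs on the plus strand from chr5:169780491 to 170163636 over 11 bins, of which 8 belong to the core and 3 lie beyond it. KCNMB1, chr5:169801675-169816638 on the minus strand, lies inside KCNIP1 and within a single bin, so its contacts cannot be told apart from those of that part of KCNIP1. C5orf58 shares a bin with the 3′ part of LCP2. KCNIP1 has an outer start at 169780491 and an inner start at 169931024, the start of its canonical transcript, which fall into different bins of the core and could be followed separately. A further annotated start at 170107957 lies beyond the core and was not followed.

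The inner start of KCNIP1 is richer in CG pairs than the outer one and than the canonical starts of KCNMB1 and LCP2. These pairs are written in capitals in the sequences below, which run 5′ to 3′ on the strand of the gene from 250 bases before the start to 50 bases from it in GRCh37. The sequences are shown because LCP2 and both starts of KCNIP1 are the anchors whose contacts are followed. The inner KCNIP1 start is at chr5:169930774-169931073, plus strand, the outer one at chr5:169780241-169780540, plus strand, and the LCP2 start at chr5:169724732-169725031, minus strand.
KCNIP1 inner start: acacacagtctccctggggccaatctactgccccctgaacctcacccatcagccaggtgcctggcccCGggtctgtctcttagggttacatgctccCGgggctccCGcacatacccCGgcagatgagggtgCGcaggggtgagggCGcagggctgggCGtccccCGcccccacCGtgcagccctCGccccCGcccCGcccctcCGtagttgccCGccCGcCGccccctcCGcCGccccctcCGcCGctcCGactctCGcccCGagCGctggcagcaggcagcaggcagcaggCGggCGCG
KCNIP1 outer start: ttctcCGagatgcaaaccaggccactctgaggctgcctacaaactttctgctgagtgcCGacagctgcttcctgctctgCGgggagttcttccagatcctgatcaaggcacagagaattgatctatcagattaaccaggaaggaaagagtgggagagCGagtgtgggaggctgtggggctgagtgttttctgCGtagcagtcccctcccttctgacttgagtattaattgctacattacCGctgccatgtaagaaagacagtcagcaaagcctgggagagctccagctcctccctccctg
LCP2 start: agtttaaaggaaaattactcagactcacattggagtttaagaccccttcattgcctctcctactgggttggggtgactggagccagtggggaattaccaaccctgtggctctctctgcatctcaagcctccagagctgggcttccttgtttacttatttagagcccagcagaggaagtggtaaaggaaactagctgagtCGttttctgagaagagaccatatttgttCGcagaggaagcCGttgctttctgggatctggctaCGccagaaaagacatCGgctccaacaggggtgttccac
The inner KCNIP1 start holds 27 CG pairs in 300 bases, and 31.8% of the 884 gene starts on chromosome 5 hold at least as many. Those 884 starts are the outermost annotated ones, for KCNIP1 the outer start. The inner KCNIP1, KCNMB1 and LCP2 starts compared with them are those of canonical transcripts. The outer start and the KCNMB1 start hold 6 each and the LCP2 start 5, numbers that 75% and 79.1% of the starts reach or exceed. Methylation was not measured here.

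Contacts are given as observed/expected (O/E), the balanced value divided by the mean value of chromosome 5 at the same distance in the same library. Over the 55 pairs of core bins, log2 of the mean O/E was 0.31, 0.29 and 0.29 in the growing libraries, given here and below in the order of their replicate numbers, against 0.76 and 0.68 in RIS. Both RIS libraries thus lay above all growing libraries. The mean went from 0.30 ± 0.013 (SD, n = 3) to 0.72 ± 0.054 (SD, n = 2), a difference of 0.42. Each library held between 3283 and 4570 contacts in these pairs. Over all 4277 windows of 11 bins on chromosome 5 the same difference had a median of 0.0075, with 90% of windows between -0.31 and 0.19. In 36.5% of these windows both RIS libraries lay above all growing libraries, and in 36% below, so separated libraries are common on this chromosome. Contacts within each of the other segments of the window were higher in both RIS libraries too, by 0.47 in the FOXI1 segment, 0.46 in that of the KCNIP1 3′ end and GABRP, 0.24 in SLIT3, 0.19 in RANBP17, 0.15 in NPM1 and 0.13 in DOCK2. The difference was 0.46 in the libraries with few duplicates and 0.39 in those with many.

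**Figure D1:**
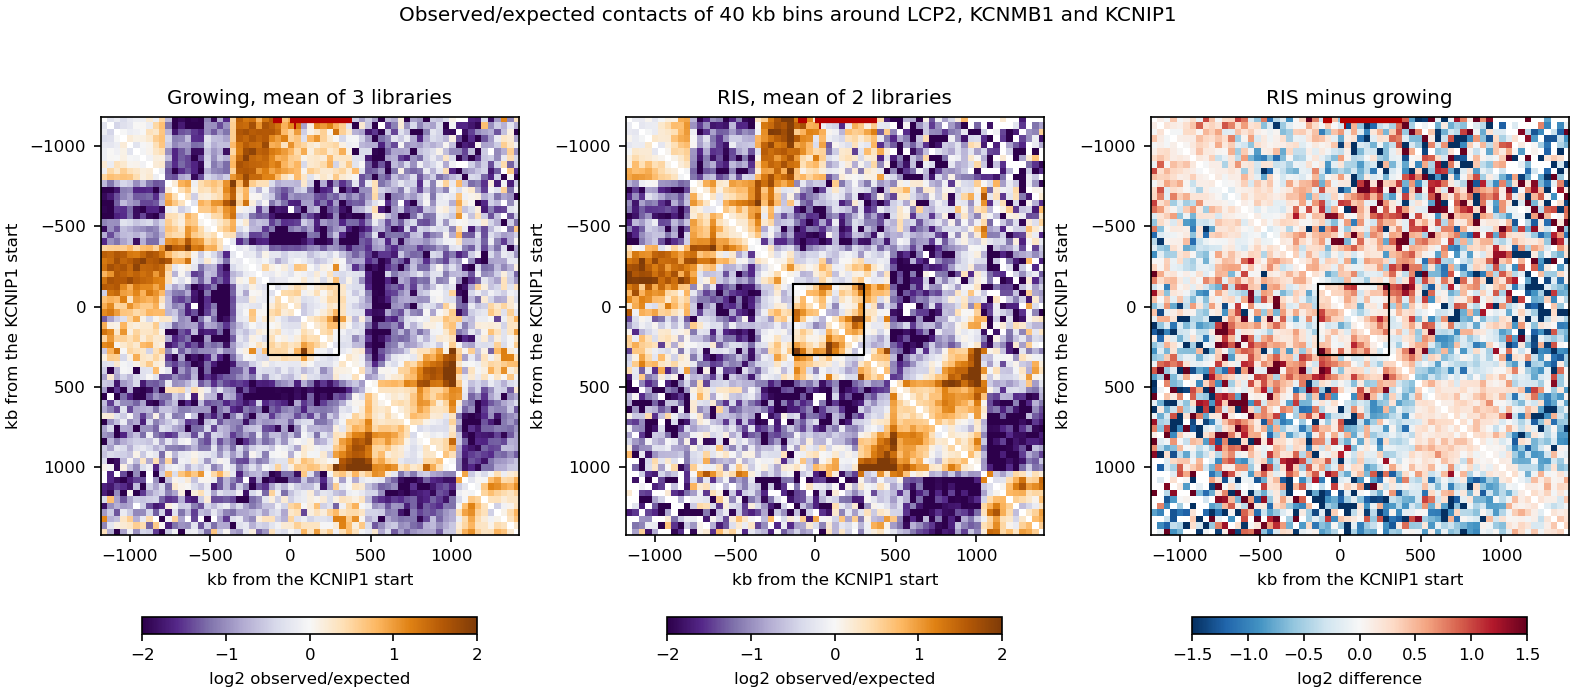
Maps of log2 observed/expected contact between the 40 kb bins of the window, in growing cells (mean of 3 libraries), in RIS cells (mean of 2) and as the difference, with both axes in kb from the outer KCNIP1 start, the core as a black square and the 3 genes as red bars. The diagonal and pairs without contacts are also left white. Inside the square 44 of 55 pairs had a higher mean in RIS, and the log2 mean went from 0.30 to 0.72.

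The gain was spread over the core but uneven. The RIS mean was above the growing mean in 44 of the 55 pairs, and in 28 both RIS libraries lay above all growing libraries. In 4 pairs both lay below. Among all 43610 pairs of chromosome 5 bins at these distances, the shares were 15.4% above and 20.2% below. The log2 mean O/E rose by 0.32 for bins 40 to 120 kb apart, by 0.46 for bins 160 to 280 kb apart and by 0.65 for the 6 pairs 320 to 400 kb apart. The medians of the differences of single pairs did not follow this order, at 0.32, 0.17 and 0.42, and the farthest class includes the pair of the end bins. Whether the gain differs with distance was not tested.

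**Figure D2:**
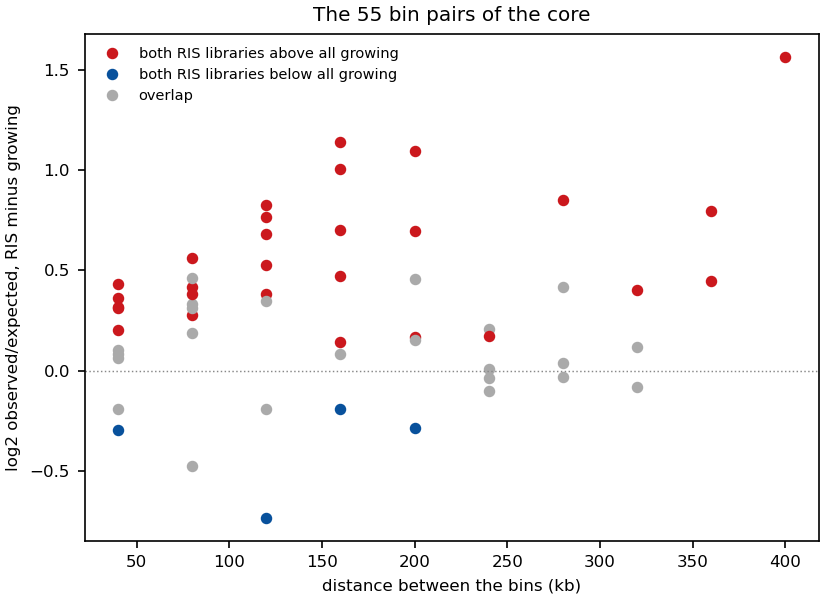
Difference in log2 observed/expected contact, RIS minus growing, for each of the 55 pairs of core bins against the distance between the bins in kb. Red points are the 28 pairs where RIS exceeded growing in every library, blue points the 4 pairs below and grey points the others, and the highest point is the pair of the end bins.

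The largest gain joined the end bins. The bin at chr5:169640001-169680000, with the 3′ part of LCP2 and C5orf58, and the bin at chr5:170040001-170080000, inside KCNIP1, had an O/E of 0.771, 1.17 and 2.17 in growing libraries and 4.94 and 3.17 in RIS. These values rest on 7, 11 and 20 contacts in growing and 31 and 27 in RIS, so single libraries are imprecise, and growing replicate 3 lay closest to RIS. The mean went from 1.37 ± 0.719 to 4.06 ± 1.25 (SD, n = 3 and 2). The first of these bins also gained with the KCNMB1 bin, from O/E values of 1.27, 1.53 and 1.26 to 2.49 and 2.94. In neither pair did the libraries overlap, and the second rests on 49 to 66 contacts in growing and 68 and 123 in RIS. These pairs were picked out after their values were seen.

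Contacts of LCP2 with the other members rose in both RIS libraries. With the 8 core bins of KCNIP1, log2 of the mean O/E of LCP2 was 0.27, 0.19 and 0.29 in growing libraries and 0.77 and 0.65 in RIS. With the KCNMB1 bin it was 0.42, 0.44 and 0.32 in growing libraries and 1.04 and 1.20 in RIS, a difference of 0.72. The part of KCNIP1 beyond the core, which holds its 3′ end, gave the largest of these changes among the members. There LCP2 had log2 values of -0.07, 0.04 and -0.08 in growing libraries, close to the chromosome's mean, and 0.80 and 0.84 in RIS. The difference was 0.86, on 154 to 179 contacts in growing and 182 and 266 in RIS. The gain continued into GABRP, which encodes the pi subunit of the GABA-A receptor and follows KCNIP1 on the same strand. LCP2 contacts with GABRP were below the expected value in growing cells, with log2 values of -0.53, -0.69 and -0.54, and above it in RIS, with 0.28 and 0.19. All of these differences kept their direction with recovered contacts. They also kept it within each duplicate class, which follows from libraries that do not overlap and adds no support.

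**Figure D3:**
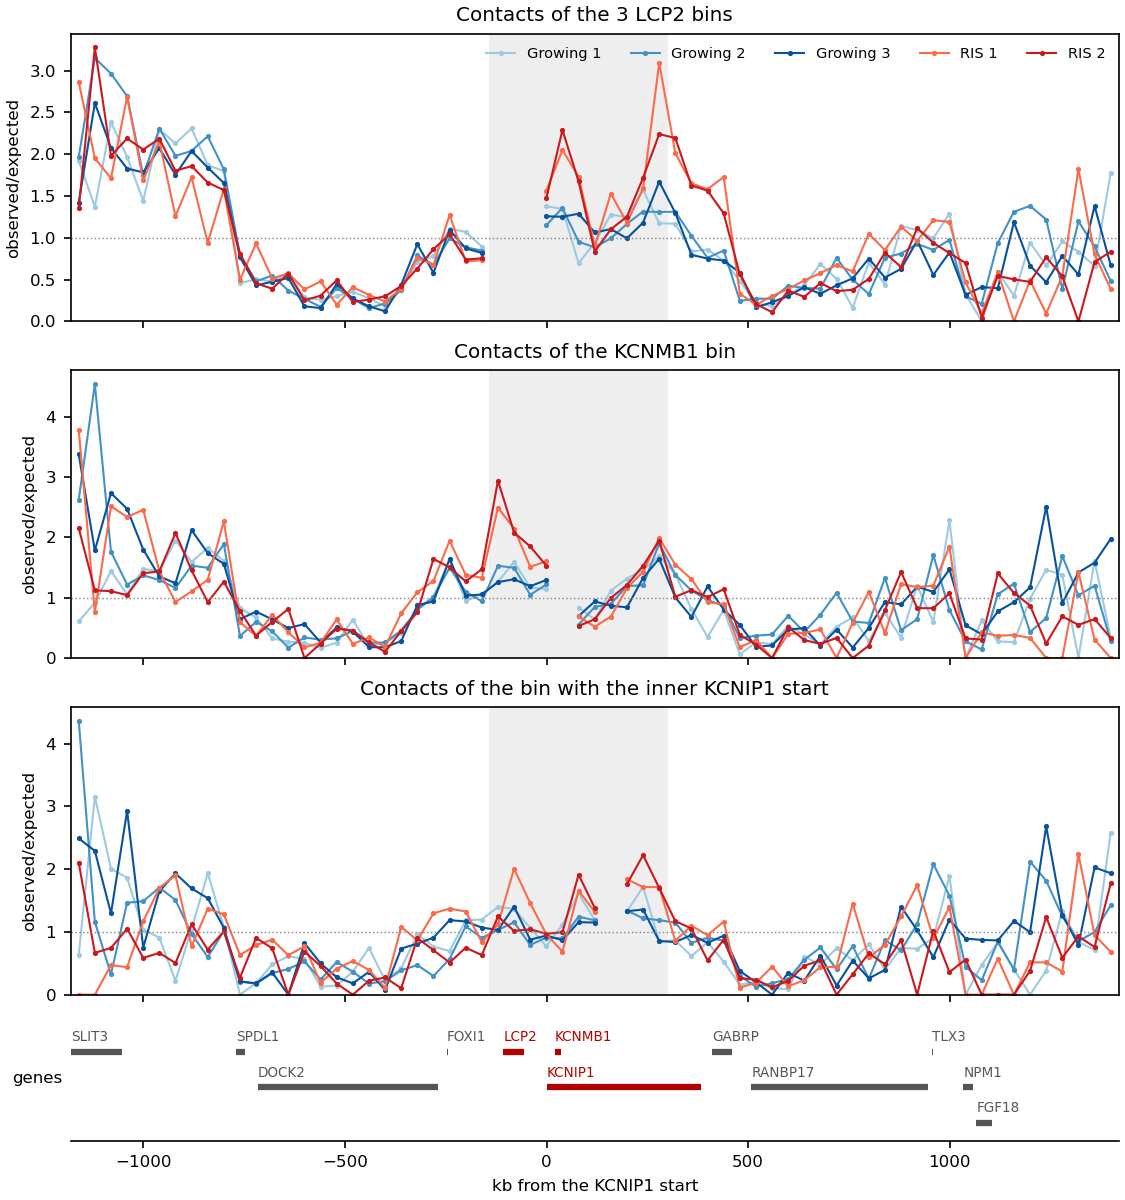
Observed/expected contact of the 3 LCP2 bins, the KCNMB1 bin and the bin with the inner KCNIP1 start with each other 40 kb bin of the window, against the position in kb from the outer KCNIP1 start, one line per library (growing in blue, RIS in red), with the core shaded, genes drawn below and a dotted line at the expected value of 1. In RIS the LCP2 lines lie above growing at the KCNMB1 bin and again from the right end of the core into GABRP, and meet the growing lines before RANBP17.

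The LCP2 profile overlapped between conditions from the end of GABRP on, at least as far as the first bins of RANBP17. The O/E of LCP2 with the bin at chr5:170200001-170240000, inside GABRP, was 0.727, 0.848 and 0.727 in growing libraries and 1.73 and 1.29 in RIS. In the next bin, chr5:170240001-170280000, it was 0.485, 0.246 and 0.583 in growing cells against 0.333 and 0.562 in RIS, where the libraries overlapped. GABRP ends at 170241051, so the gain stopped at the bin of its 3′ end. The gain was not continuous either, since LCP2 contacts with the 3 bins from 169880001 to 170000000 in the middle of KCNIP1 overlapped between conditions. On the other side, LCP2 contacts with the bin just upstream of the core, chr5:169600001-169640000, were 0.895, 0.847 and 0.819 in growing and 0.732 and 0.755 in RIS. For LCP2 with the 3 bins of the FOXI1 segment, chr5:169520001-169640000, the log2 difference was -0.12 with balanced values and 0.14 with recovered contacts, so its direction is not settled.

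The KCNMB1 bin gained more with LCP2 than with the part of KCNIP1 around it. Its log2 mean O/E with the core was 0.29, 0.25 and 0.18 in growing libraries and 0.51 and 0.61 in RIS. With the other KCNIP1 bins it was 0.10, 0.17 and 0.07 in growing cells against 0.25 and 0.21 in RIS, a difference of 0.11 that was 0.37 with recovered contacts. For the KCNMB1 bin with LCP2 the values were 0.72 and 0.95. The contrast between these differences was not tested.

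KCNIP1 gained within its core part. Over the 28 pairs of its core bins, log2 of the mean O/E was 0.37, 0.39 and 0.32 in growing libraries and 0.79 and 0.74 in RIS. Between its core bins and its 3′ end it was -0.11, -0.07 and -0.11 in growing cells against -0.09 and -0.01 in RIS, so the libraries overlapped. The mean contact of the 3′ end with the body of its own gene moved by 0.04 with balanced values and by 0.23 with recovered contacts, against 0.86 and 1.00 for the 3′ end with LCP2. The outer start bin had log2 values with the core of 0.07, 0.11 and 0.11 in growing and 0.38 and 0.31 in RIS. The inner, CG-rich start bin had 0.31, 0.13 and 0.13 in growing and 0.53 and 0.51 in RIS. Both starts gained, by 0.25 and 0.33, and growing replicate 1 lay apart from the other growing libraries at the inner start. LCP2 contacts with the inner start bin overlapped between conditions, with log2 values of 0.35, -0.01 and 0.14 in growing and 0.61 and 0.14 in RIS.

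A focal contact inside KCNIP1 stood out in all 5 libraries by O/E of balanced values. It joined chr5:169840001-169880000 with chr5:170040001-170080000, 200 kb apart, neither of which holds an annotated exon. Its O/E was 3.75, 4.41 and 3.48 in growing libraries, on 38, 43 and 38 contacts, and 6.28 and 6.30 in RIS, on 54 and 72 contacts. By this measure the contact was present before RIS and stronger in it. Recovered contacts of growing cells did not single it out. Also 200 kb apart, chr5:169880001-169920000 and chr5:170080001-170120000 had 68, 67 and 75 contacts in growing libraries, and 42 and 53 in RIS. Next to the focal contact, the O/E of chr5:169840001-169880000 with chr5:170000001-170040000 went from 2.19, 1.70 and 1.99 in growing to 4.42 and 4.22 in RIS, a gain of 1.14 on the log2 scale. Another gain linked chr5:170040001-170080000 to chr5:170200001-170240000 inside GABRP, from 0.984, 1.02 and 1.50 in growing to 3.02 and 3.71 in RIS. In RIS the bin at chr5:170040001-170080000 therefore contacted LCP2, the middle of KCNIP1 and GABRP above expectation. Its growing means were above expectation as well, at 1.38 with LCP2, 3.88 with chr5:169840001-169880000 and 1.17 with this GABRP bin. These pairs, too, were picked out after their values were seen.

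CTCF, a zinc-finger protein, commonly anchors such focal contacts, and the letters CCANNAGGNGGC belong to the core of its motif. They were searched on both strands of the GRCh37 sequence without allowing mismatches. At least 1 match was present in 21.2% of the 4436 chromosome 5 bins of complete sequence and in 5 of the 11 core bins, which held 8 matches. The searched letters are rich in G and C. The core bins had a mean of 46.2% G and C against 39.5% in the bins of the chromosome. The shares were not compared at like composition, so no excess of matches is read from them. The matches in the bins of the focal contacts are printed 5′ to 3′ with the 12 searched positions in capitals and 6 bases on either side. Those bins carry the highest O/E inside KCNIP1. All 5 lie in introns of KCNIP1, and the coordinates are those of the capitals.
chr5:169851312-169851323, plus strand: tccttcCCACAAGGAGGCattact
chr5:170031151-170031162, plus strand: acttgcCCAACAGGTGGCgccatt
chr5:170033575-170033586, plus strand: cctgacCCAGAAGGTGGCcatctc
chr5:170050748-170050759, minus strand: aggccaCCAGAAGGGGGCagcgcc
chr5:170055600-170055611, plus strand: tgtgatCCAGAAGGCGGCcttggt
The match in the upstream anchor lay on the plus strand and 1 of the 2 matches in the downstream anchor on the minus strand. LCP2 held 2 intronic matches in its middle bin, and the bin of its 3′ part held none. A match in these letters does not show that CTCF binds there, and binding was not measured here.

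**Figure D4:**
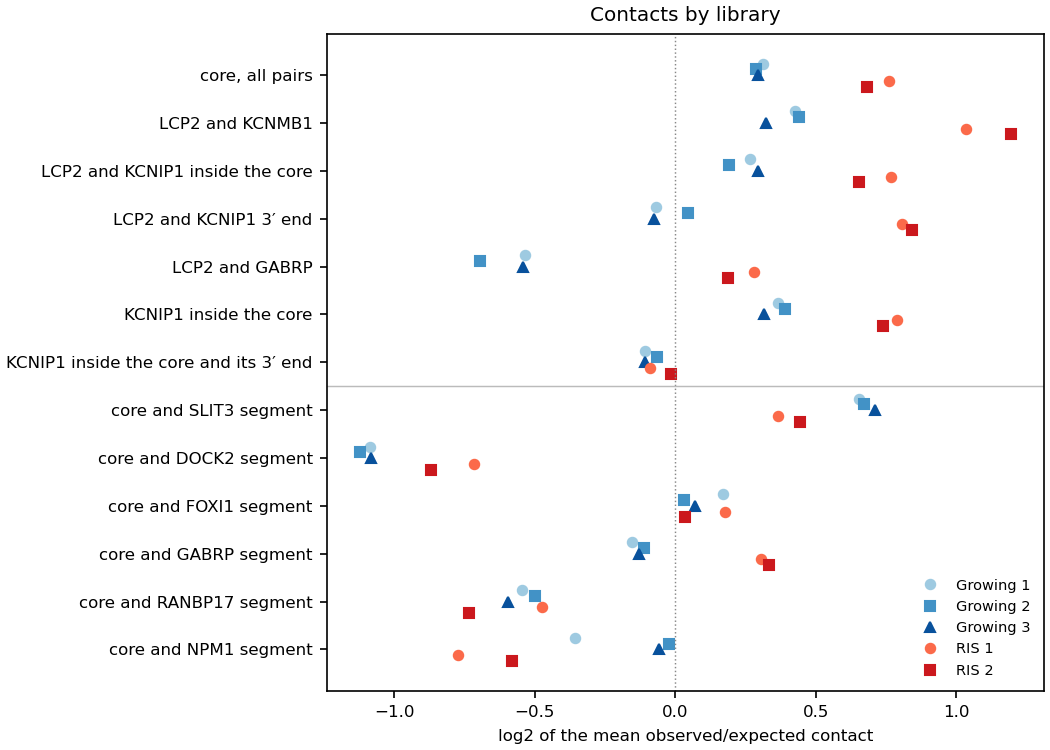
Log2 of the mean observed/expected contact in each of the 5 libraries (growing in blue, RIS in red) for pairs of genes within the domain, above the line, and for the core with each neighbouring segment of the window, below it. RIS lies to the right of growing for LCP2 with KCNMB1, KCNIP1 and GABRP, the conditions overlap for KCNIP1 and its own 3′ end, and the DOCK2 segment gains where the SLIT3 and NPM1 segments lose.

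Contacts with the flanks were examined in segments cut at the ends of the core and of the window. The other cuts lie at minima of the insulation profiles and were set after these had been seen. In growing cells the core met its nearest large neighbour less often than expected and the next one more often. With the segment of DOCK2, a Rac activator of blood cells, at chr5:169000001-169520000, log2 of the mean O/E of the core was -1.09, -1.12 and -1.08. With the more distant segment of SLIT3, a secreted guidance ligand, at chr5:168600001-169000000, it was 0.65, 0.67 and 0.71. In RIS the DOCK2 values rose to -0.71 and -0.87 and the SLIT3 values fell to 0.36 and 0.44, so no RIS library overlapped the growing ones in either segment. The order of both segments stayed as it was, with the gap between them narrower. With recovered contacts the DOCK2 difference was 0.49 instead of 0.31 and the SLIT3 difference -0.09 instead of -0.27.

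The members took unequal parts in these changes. LCP2 contacts with the SLIT3 segment overlapped, at log2 values of 0.96, 1.19 and 0.93 in growing and 0.89 and 0.99 in RIS, and the mean difference of -0.09 turned to 0.04 with recovered contacts. The core part of KCNIP1 lost them, from 0.52, 0.42 and 0.62 in growing to 0.10 and 0.17 in RIS, a difference of -0.38 that was -0.17 with recovered contacts. The part of KCNIP1 beyond the core went the other way, from -0.12, 0.18 and 0.14 to 0.26 and 0.19, and the KCNMB1 bin overlapped, with 0.48, 0.92 and 1.01 in growing and 0.92 and 0.48 in RIS. With the DOCK2 segment the core part of KCNIP1 rose from -1.03, -1.08 and -1.03 to -0.61 and -0.78. The part of KCNIP1 beyond the core rose from -1.42, -1.38 and -1.39 to -0.73 and -1.10. LCP2 rose less, from -1.23, -1.24 and -1.24 to -1.03 and -1.12. Whether the genes differ in these shifts was not tested. KCNIP1 contacts with the bin of FOXI1, a forkhead factor gene between DOCK2 and LCP2, rose from log2 values of 0.22, 0.15 and 0.03 to 0.57 and 0.25. LCP2 contacts with that bin overlapped. The core with the whole FOXI1 segment overlapped too, at 0.17, 0.03 and 0.07 in growing and 0.18 and 0.04 in RIS. So did the core part of KCNIP1 with that segment. The KCNMB1 bin and the part of KCNIP1 beyond the core were higher with it in RIS, the latter on 64 to 105 contacts per library.

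Downstream the core gained with its direct neighbour and lost farther out. With the segment of the KCNIP1 3′ end and GABRP, chr5:170080001-170240000, log2 values were -0.15, -0.11 and -0.13 in growing cells against 0.30 and 0.33 in RIS. With the segment of RANBP17, a nuclear transport receptor, at chr5:170240001-170800000, they were -0.54, -0.50 and -0.59 in growing cells against -0.47 and -0.74 in RIS, where the libraries overlapped and the mean difference of -0.06 turned to 0.07 with recovered contacts. With the segment of NPM1, a nucleolar chaperone, and FGF18, a growth factor, at chr5:170800001-171200000, they were -0.36, -0.02 and -0.06 in growing cells against -0.77 and -0.58 in RIS. The difference was -0.53 with balanced values and -0.35 with recovered contacts. The genes themselves did not show it, since KCNIP1 with the NPM1 bin and both LCP2 and KCNIP1 with the FGF18 bins overlapped, and LCP2 with the NPM1 bin was higher in RIS on 3 to 5 contacts per library. The NPM1 segment rests on 322 to 444 contacts in growing and 174 and 279 in RIS. The 3′ end of KCNIP1 sided with RANBP17 in growing cells, at 0.89, 0.84 and 0.83, and had lower values with it in RIS, at 0.61 and 0.75. Summed over each flank, the core moved by -0.08 upstream and by -0.12 downstream with balanced values, but by 0.12 and 0.06 with recovered contacts, so the direction of the sums depends on the balancing.

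**Figure D5:**
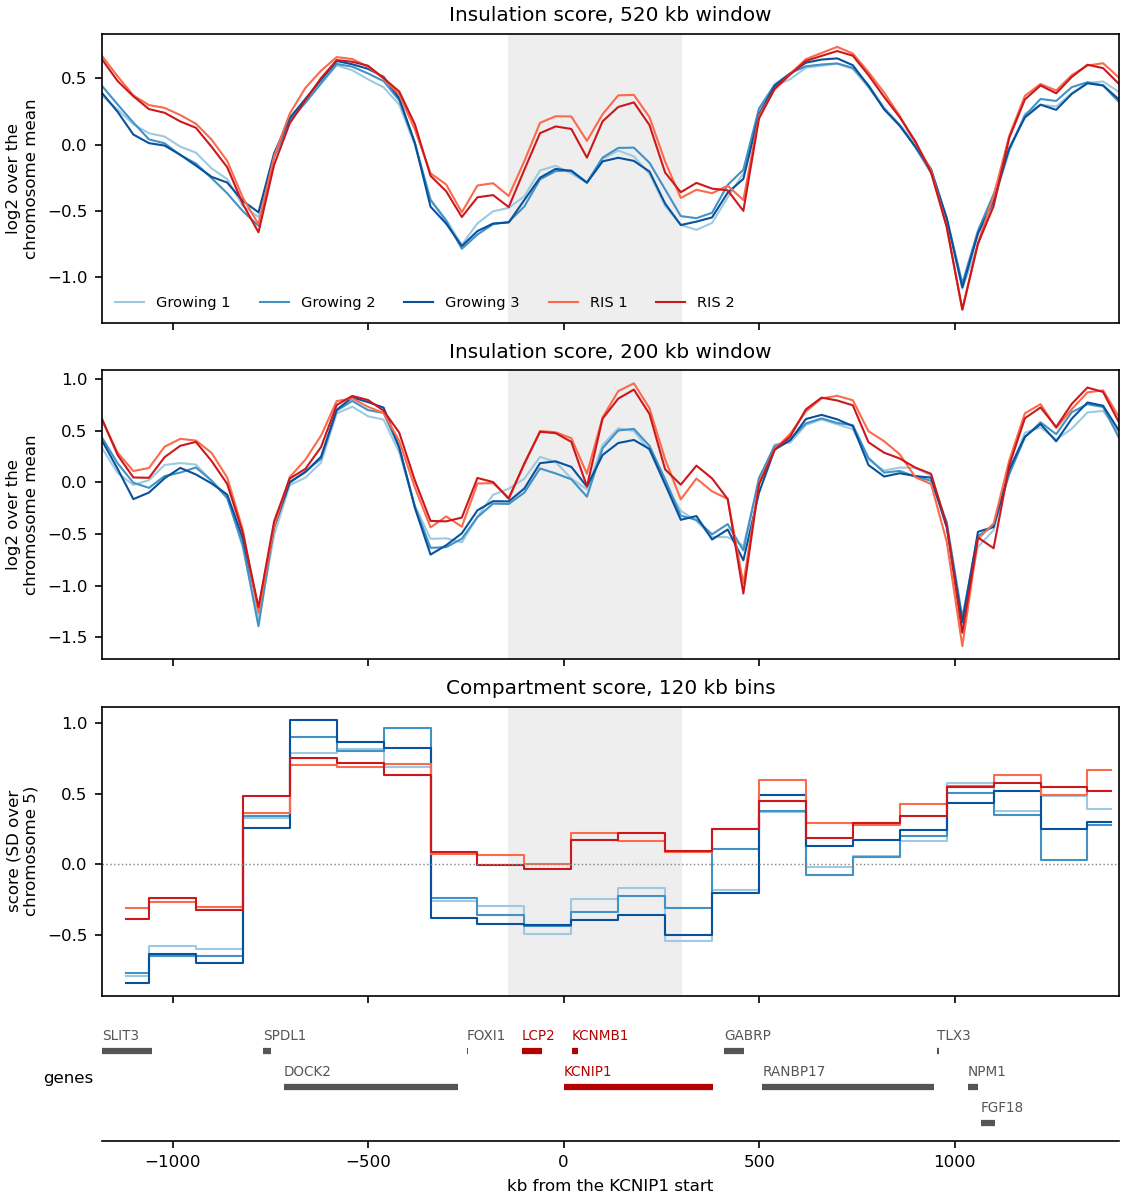
Insulation score in windows of 520 kb and of 200 kb on either side (log2 over the mean of the chromosome) and compartment score in 120 kb bins (in SD over chromosome 5), per library, against the position in kb from the outer KCNIP1 start, with the core shaded and genes drawn below. In the core RIS lies above growing in all 3 panels except near its left end in the 200 kb window, and the 520 kb minimum downstream of the core sits farther right in RIS.

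The insulation score is the mean contact across a position within a window, here 520 kb on each side, as log2 over the mean of the chromosome, so that low values mark borders. The left end of the core, at 169640000, was no border by this measure in any library. The nearest minimum upstream was at 169520000, behind DOCK2, in all 5 libraries, and its score went from -0.75, -0.78 and -0.76 in growing to -0.51 and -0.54 in RIS. At the left end of the core the score was -0.48, -0.58 and -0.59 in growing cells against -0.39 and -0.47 in RIS, a difference of 0.12, which was -0.002 with a window of 200 kb and 0.36 with recovered contacts. At the right end, 170080000, it was -0.60, -0.54 and -0.61 in growing cells against -0.40 and -0.36 in RIS. Inside KCNIP1, at 169960000, it went from -0.09, -0.02 and -0.12 to 0.38 and 0.32. Over all 4352 chromosome 5 positions, both RIS libraries lay above all growing libraries in 40.1% and below in 33.9%, with a median difference of 0.016.

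The downstream border sat in a different place in the 2 conditions. The minimum was at 170120000 in growing replicates 1 and 2 and at 170080000 in growing replicate 3, inside KCNIP1, whereas it was at 170240000, inside GABRP, in both RIS libraries. At 170240000 the score was -0.21, -0.19 and -0.26 in growing cells against -0.42 and -0.50 in RIS. With a window of 200 kb, however, the minimum was at 170240000 in every library, at -0.61, -0.66 and -0.76 in growing and -0.98 and -1.08 in RIS. The GABRP border was thus found in growing cells too at the shorter window, and was deeper in RIS. A minor minimum at 169840000, inside KCNIP1 between the KCNMB1 bin and the upstream anchor of the focal contact, passed the prominence threshold in 2 of 3 growing and both RIS libraries at 520 kb and in all 5 libraries at 200 kb. Minima at the 2 ends of the core, 169640000 and 170080000, passed it at 200 kb in both RIS libraries and in no growing library. The minimum behind DOCK2, at 169520000, passed it at 200 kb in 1 of 3 growing libraries and in no RIS library. In the others a minimum lay at 169440000 or 169480000.

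The compartment score is the first component of the distance-corrected contacts of chromosome 5 in 120 kb bins, positive on the gene-rich side. In the core it was -0.32, -0.33 and -0.41 in growing libraries and 0.12 and 0.11 in RIS. The sign changed in both RIS libraries, and the mean moved by 0.47. The bin over LCP2 and the outer KCNIP1 start, chr5:169680001-169800000, was lowest in RIS, at 0.0024 and -0.03, after -0.49, -0.44 and -0.43 in growing. The bin with KCNMB1, chr5:169800001-169920000, went from -0.24, -0.34 and -0.39 to 0.22 and 0.17. The core thus lay near the midpoint of the scale in RIS and not deep in the A compartment. The middle of DOCK2, at chr5:169200001-169320000, was positive in both conditions, with 0.82, 0.81 and 0.87 in growing and 0.69 and 0.72 in RIS. The bin with its 3′ end and FOXI1, chr5:169440001-169560000, changed sign like the core, from -0.26, -0.24 and -0.38 to 0.07 and 0.09. The bin inside SLIT3 at chr5:168600001-168720000 stayed negative, with -0.79, -0.77 and -0.84 in growing and -0.31 and -0.39 in RIS.

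Such moves were frequent among chromosome 5 bins with scores like that of the core. Over all 1466 bins both RIS libraries lay above all growing libraries in 29.7% and below in 38.7%, and the median difference was -0.04. Among the 68 bins within 0.1 of the growing score of the core the shares were 70.6% and 4.41% and the median 0.40, close to the 0.47 of the core.

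Contacts of the core with distant bins of chromosome 5 shifted the same way. These bins were 1836 A bins and 2440 B bins by their score in growing cells, and the bins just outside the window were left out. The compartment score is computed from the same contacts of chromosome 5, so this shift is not a separate observation. With A bins, log2 of the mean O/E was -0.76, -0.62 and -0.80 in growing cells against -0.93 and -0.99 in RIS. With B bins it was 0.22, 0.19 and 0.28 in growing cells against -0.49 and -0.42 in RIS. Both fell, and the preference for B over A bins shrank, from a difference A minus B of -0.98, -0.81 and -1.08 to -0.44 and -0.57. The fall was not particular to the core. Contacts with A and B bins fell by -0.17 and -0.28 in the DOCK2 segment and by -0.21 and -0.57 in the RANBP17 segment, without overlap. The DOCK2 segment preferred A bins in all 5 libraries, with A minus B at 0.94, 1.02 and 0.87 in growing and 1.01 and 1.10 in RIS, which overlap. On A minus B the RANBP17 segment shifted in the direction of the core, from 0.18, 0.17 and 0.33 to 0.62 and 0.56, a difference of 0.36 against 0.45 for the core.

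Before balancing, the bins of the core received more contacts in RIS. Their log2 coverage over the median bin of chromosome 5 was -0.99, -1.08 and -1.02 in growing cells against -0.79 and -0.77 in RIS. Balancing removes such differences, and the rise of the core contacts was 0.63 with recovered contacts against 0.42 with balanced values. Recovered contacts were also summed over the core bins, so that a contact between core bins counts at each of its bins and any other contact once. Of these sums, 30.9%, 28.7% and 29.4% stayed inside the core in growing libraries and 38.0% and 39.5% in RIS. The share with the rest of chromosome 5, beyond the window, was 32.5%, 35.3% and 36.5% in growing cells against 28.3% and 26.7% in RIS. The share with other chromosomes was 11.6%, 11.2% and 10.4% in growing cells against 9.92% and 10.4% in RIS. A rise inside the core lowers the other shares more when its contacts count at each bin, so no change is read from this small difference. Over whole libraries the share of contacts between chromosomes was higher in both RIS libraries than in all growing ones. The share inside the core thus rose in both RIS libraries and the share with the rest of the chromosome fell in both.

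Single pairs of bins were tested across the genome up to 2 Mb apart. limma on balanced values called 1205 of 2087264 pairs with Benjamini-Hochberg adjustment at 5%, which is 0.0577%, with 0.0106% higher and 0.0471% lower in RIS, and 0 of the 55 core pairs. At an unadjusted p under 0.05 it had 12 of the 55, all higher in RIS, against 9.91% of all pairs in either direction. limma voom on recovered contacts called 1.17% of all pairs, 0.789% higher and 0.378% lower in RIS. In the core it called 21, all higher in RIS, and had 38 at an unadjusted p under 0.05, against 13.1% of all pairs. Since the domain was chosen for its changed pairs in these libraries and voom does not remove the rise in coverage, these counts only describe the core. The number fell to 10 without RIS replicate 1, when voom called 0.0865% of all pairs, and to 4 without RIS replicate 2, when it called 0.0597%. Outside the core, voom called 10 of 44 pairs of the core with the segment of the KCNIP1 3′ end and GABRP and 2 of 117 with the DOCK2 segment, all higher in RIS. It called 0 of 350 tested pairs with the SLIT3, FOXI1, RANBP17 and NPM1 segments. At an unadjusted p under 0.05 voom had 18 of these pairs higher and 7 lower, and limma 10 higher and 30 lower. For voom this is a smaller share than its 13.1% of all pairs, and for limma one near its 9.91%. With the SLIT3 segment, 107 pairs, limma had 0 higher and 13 lower, but voom 2 higher and 2 lower. With the NPM1 segment, 71 pairs, limma had 3 higher and 7 lower, and voom 1 higher and 3 lower.

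By start site, voom called 4 of 69 tested pairs of the LCP2 start bin, 2 of 73 of the outer KCNIP1 start bin and 4 of 75 of the KCNMB1 bin, each higher in RIS, and limma on balanced values called none of them. The start bin of C5orf58, which holds the 3′ part of LCP2, had the most of the window, 8 of 71. GABRP had 5 of 59, FGF18 3 of 47 and FOXI1 3 of 63, whereas DOCK2 had 1 of 61, lower in RIS. Over the 14 genes of the window, members included, voom called 32 of 886 pairs higher and 1 lower, which is 3.72% against 1.17% of all pairs. Since the domain was chosen by its changed contacts, this share is a description only. Relatives and partners of the members were counted in the same way. Of 23 such genes 22 had tested pairs, 1146 in all, of which limma called 1, lower in RIS, and voom 15 higher and 1 lower. That is 1.4% of these pairs by voom, near the 1.17% of all pairs of the genome, so nothing is read from the calls of single genes on the list. The limma call belonged to ZAP70, a kinase upstream of SLP-76, with 1 of 52 pairs, where voom called 1 pair higher in RIS. By voom no gene of the list had more than 3 called pairs.

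Genes with the most similar local contacts were sought on chromosome 5 by the root mean square difference, over the 5 libraries, of the mean log2 O/E of the start bin with bins 80 to 200 kb away. Among 781 genes compared, AGXT2, PWWP2A and PCDHB6 were nearest to LCP2, at 0.046, 0.0508 and 0.0587. AGXT2, PWWP2A and SSBP2 were nearest to the outer start of KCNIP1, at 0.0474, 0.0482 and 0.0494, so these members, whose start bins are adjacent, share their nearest pair of genes. KCNMB1 was farther from its nearest genes, S100Z at 0.0865 and MSANTD5 and ENSG00000285978, which share a bin, at 0.0943. On this measure KCNMB1 went from 0.22, 0.16 and 0.11 in growing to 0.33 and 0.54 in RIS, whereas LCP2 went from -0.10, -0.19 and -0.05 to 0.02 and -0.13 with overlapping libraries. The mean of LCP2 moved by 0.05. The nearest genes of KCNMB1 rose as well, S100Z from 0.22, 0.21 and 0.20 to 0.34 and 0.37. MSANTD5 and ENSG00000285978 went from 0.32, 0.26 and 0.25 to 0.41 and 0.56. Genes were matched over all 5 libraries, RIS included, so a like change is built into the choice.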

How the data were processed

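Per the labels and the methods of the study, the authors used HiC-Pro for alignment against hg19, filtered out artefacts and duplicate reads, binned the contacts at 40 kb and balanced each library by ICE (iterative correction). The deposited values are balanced signal per pair of bins, with replicates not pooled and all libraries brought to 1 total. Balancing evens out the coverage of bins. The balanced values of a pair are whole multiples of a product of bin factors, from which whole contacts were recovered. Among pairs with small counts, 100% lay within 0.05 of a whole number in each library. For larger counts the allowed deviation grew with the count, so for the largest this check could not fail. In some libraries the total of the recovered contacts exceeds the valid pairs the study lists, and the reason was not found. Intervals from these contacts would cover counting error only, and none are given.

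O/E, insulation and compartment scores were computed per library with Python 3.11.15, numpy 2.4.6 and scipy 1.17.1. Borders are minima with a prominence of at least 0.1. Bin pairs up to 2 Mb apart with a mean scaled value of at least 5 were tested with limma 3.58.1 in R 4.3.3 on log2(value + 0.5) after loess, with Benjamini-Hochberg adjustment at 5%, and with voom on recovered contacts. On simulated data with known changes in a small share of pairs, limma called none of the changed pairs and voom a part of them, so a count of 0 by limma does not show that pairs did not change. The quasi-likelihood test of the study, which takes counts, was run neither on these balanced files nor on the recovered contacts. The study calls the libraries biological replicates. Capture libraries, another assay, were not used here. Named genes are the 3 members, the other genes of the window, the genes most similar in contact and a list of relatives and partners. The members, lists and tests were chosen with earlier results of these data known. The result of 1 listed gene is not reported here.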

Additional observations from a re-analysis of the deposited data

How the results depend on the processing

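The values of 10 results that carry no test were recomputed under 110 other settings. Of these settings, 73 stayed within 1 SD between replicates, 34 moved by more than that, up or down, with the direction kept, and 3 changed direction. The replicate block and leaving out growing replicate 3 gave the same values, and both are counted here. With recovered contacts in place of balanced values, the log2 difference RIS minus growing was 0.633 within the core (0.424 balanced), 0.610 for LCP2 with the core, 0.591 for KCNMB1, 0.594 for KCNIP1 and 0.737 for LCP2 with KCNIP1. With the same contacts it was 0.362 and 0.341 for insulation at the left and right edges, and the direction turned for the core with its flanks, to 0.124 upstream and 0.055 downstream. The median of the bin pairs gave 0.256 for the core, 0.274 for LCP2, 0.283 for KCNIP1, 0.447 for LCP2 with KCNIP1, -0.006 upstream and -0.286 downstream. Without adjacent bins the core had 0.466 and KCNIP1 0.422, and the core had 0.337 when widened and 0.319 when narrowed by 1 bin on each side. In the libraries with few duplicates the values were 0.461 for the core, 0.518 for LCP2, 0.238 for KCNMB1, 0.611 for LCP2 with KCNIP1 and -0.053 upstream. In those with many they were 0.389, 0.355, 0.425, 0.505 and -0.108, with 0.247 for the right edge and 0.513 for the compartment score. The left edge had -0.002 with a 200 kb window, which turns its direction, and the right edge 0.136 with a 1000 kb window. The cause of these moves was not tested.

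Leaving out each library in turn gave 0.386 to 0.462 for the core, 0.393 to 0.499 for LCP2, 0.267 to 0.368 for KCNMB1, 0.377 to 0.413 for KCNIP1, 0.528 to 0.6 for LCP2 with KCNIP1, -0.087 to -0.064 upstream, -0.165 to -0.086 downstream, 0.078 to 0.161 and 0.182 to 0.226 for the left and right edges and 0.44 to 0.482 for the compartment score.

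The count of called bin pairs of the genome, 1205 with limma, depended on the setting. It was 24358 with voom on recovered contacts, 24926 with voom without loess, 2 with a mean-variance trend, 459 with a pseudocount of 1, 189 with a smallest mean value of 10 and 0 with one of 1, where 280094 pairs had an unadjusted p under 0.05. Without any one library limma called 0 pairs each time, with 156455 to 260500 at an unadjusted p under 0.05, and voom 1247 to 20264 (8885 without growing replicate 1 and 16129 without growing replicate 2). In the core limma called 0 pairs under each of these settings and voom 4 to 19 without any one library. Growing and RIS libraries share the replicate numbers 1 and 2. The deviations of same-numbered libraries correlated at 0.002 and -0.002 over all tested pairs, and the numbers were not taken to pair the libraries. With 2 RIS libraries these correlations are not independent of each other, and noise in single bin pairs could hide a shared effect. Whether the libraries are paired is therefore not settled by them. With the replicate number as a block limma called 0 pairs, with 128433 at an unadjusted p under 0.05, and voom 22210, of which 21 lay in the core. Within the shared numbers the pairing gave 0.422 for the core, 0.465 for LCP2, 0.289 for KCNMB1, 0.390 for KCNIP1, 0.575 for LCP2 with KCNIP1, -0.065 upstream, -0.115 downstream, 0.101 and 0.192 for the edges and 0.440 for the compartment score. Each of these equals the value without growing replicate 3, so they show nothing about pairing. The trend, both additional voom fits, the voom fits without single libraries, the block on the values without a test other than that of the core and the split into segments were chosen after seeing the data.

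Depth limits single pairs of bins: the pair of the end bins of the core rests on 7 to 31 contacts per library. The number of libraries, 3 and 2, limits all values.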
